A study of Drosophila melanogaster with 4 samples.

Results

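The pericentromere of the Drosophila melanogaster X chromosome carries a dense array of transposon remnants, among them the flamenco locus, and small RNAs over these copies were counted in ovaries. The members are the 2471 annotated repeat copies on X that start at position 21350000 or beyond in the dm6 assembly, out of 137555 copies in the table. They were divided by position into flamenco (177 copies starting from 21630000 to 21800000), a window labelled 20A (68 copies, from 21390000 to 21440000) and the remaining 2226 copies, called the rest. A repeat copy is a single annotated stretch of a transposon, satellite or simple repeat. Reads were counted for 757 members in at least 1 library, and 154 passed the low-count filter and were tested. The first member is a simple repeat at X:21350526 to 21350562, the nearest copy outside the boundary is a simple repeat at X:21347210 to 21347235, and both had 0 counts in every library.

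The 4 libraries were made from ovaries of flies with a germline knockdown. In the Ars2KD group (n = 2) the hairpin Ars2_sh1 (Vienna stock 106344) targeted Ars2, an RNA-binding protein that works with the nuclear cap-binding complex. In the control group wKD (n = 2) the hairpin white_sh (Vienna stock 30033) targeted the eye colour gene white. RNA of 19 to 29 nt was selected on a gel. The tables count small RNAs, so the knockdown itself was not checked here. The sources used here do not give the driver line, the age of the flies or whether replicates came from separate flies. All p-values therefore refer to the spread of these 4 libraries alone, which may be technical. The series title names silencing of telomeric repeats and transposons as the subject, and the comparison here asks whether X pericentromere small RNAs differed between the knockdowns.

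PIWI-interacting RNAs (piRNAs) are small RNAs that guide PIWI proteins to transposon transcripts and silence them. Many derive from piRNA clusters, which are long loci packed with old transposon copies. flamenco is a cluster transcribed from a single strand and known for its activity in the somatic follicle cells around the germline, where it controls gypsy, ZAM, Idefix and related LTR retrotransposons, whereas dual-strand clusters such as 42AB are active in the germline. The values below are counts of reads of 24 to 29 nt, the usual length of piRNAs, over each copy. They were not otherwise checked to be piRNAs.

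Over all repeat copies of the table, Ars2KD 1 held 46218 counts and Ars2KD 2 held 169124, while wKD 1 held 64395 and wKD 2 held 323180, so the libraries numbered 2 were deeper in both groups. Normalised counts are CPM values (counts scaled to a common library size) after scaling by the trimmed mean of M values (TMM), and levels of a group are mean ± SD (n = 2). Pairs of values are in the order of library 1 and library 2, and in a comparison of levels Ars2KD comes first. Summed over each list, marker miRNAs differed between numbers more than between groups, but single markers did not all do so. Germline miRNAs (miR-184-3p, miR-311-3p and miR-312-3p) held 14.4% and 48.6% of miRNA counts in Ars2KD and 13.5% and 41.5% in wKD, and follicle cell miRNAs (miR-318-3p, miR-989-3p and miR-994-5p) held 14.6% and 9.37% in Ars2KD and 12.6% and 10.8% in wKD. miR-184-3p and miR-989-3p carried most of these sums in the libraries numbered 2. As CPM of all miRNA counts, Ars2KD 2 lay above wKD 2 for miR-184-3p (475791 against 350528) but below it for miR-311-3p (393 against 5413) and miR-312-3p (9490 against 59027). Of the follicle cell miRNAs, miR-318-3p (3859 against 20318) and miR-994-5p (6928 against 14382) were also lower in Ars2KD 2 than in wKD 2. The 3 testis miRNAs examined had at most 124 counts in any library. The defining markers of ovarian germline and follicle cells were thus present in every library, and the part of these differences in the results below was not tested.

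In the X pericentromere as a whole, the group means differed by less than the spread between libraries. Its copies held 6731 and 21386 counts in Ars2KD 1 and 2, against 8899 and 39093 in wKD 1 and 2, that is 14.6% and 12.6% of all repeat counts in Ars2KD and 13.8% and 12.1% in wKD. Each share was higher in library 1 than in library 2 of its group, and the groups overlapped. After scaling, the mean level was 159113 ± 4985 CPM against 159397 ± 5427 CPM. The fitted log2 ratio of Ars2KD to wKD was -0.03 (SE 0.21), with a 95% interval from -0.52 to 0.46 and an adjusted p of 0.998 in edgeR's quasi-likelihood test. 3 rows of region sums and single copies passed an adjusted p under 0.05 as higher in Ars2KD among 1495 tested (0.201%), none passed as lower (0%), and no X pericentromere region was among them. At an unadjusted p under 0.05 the same rows gave 2.27% higher and 2.54% lower, again with no X pericentromere region. In whole ovaries, fewer cells of a type and less RNA per cell cannot be told apart.

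flamenco gave 22.4% to 32.2% of the X pericentromere counts over the libraries, and its group means differed by less than the spread between libraries. Its 177 copies, 138 of them LTR retrotransposon fragments and 16 LINE fragments, held 1828 and 5102 counts in Ars2KD 1 and 2, against 2867 and 8758 in wKD 1 and 2. The share of all repeat counts was 3.96% and 3.02% in Ars2KD and 4.45% and 2.71% in wKD, so that the highest and the lowest libraries were both wKD and the groups overlapped. The level was 40527 ± 2443 CPM against 43343 ± 9580 CPM. The log2 ratio was -0.13 (SE 0.33), with a 95% interval from -0.90 to 0.65 and an adjusted p of 0.998 in edgeR. Taken by library number, it was -0.25 (-0.33 to -0.16) between the libraries numbered 1 and 0.09 (0.04 to 0.14) between those numbered 2, where the intervals are exact binomial and cover counting error only. The sign thus differed between the numbers, and both intervals left out 0. The knockdown was in the germline, while flamenco is known for its activity in follicle cells. Whether flamenco small RNAs depend on Ars2 in those cells was therefore not tested.

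The rest of the X pericentromere held more counts than flamenco in every library. Its 2226 copies had 4902 and 16284 counts in Ars2KD 1 and 2, against 6032 and 30335 in wKD 1 and 2, and its level was 118574 ± 7444 CPM against 116054 ± 15006 CPM. The log2 ratio was 0.0019 (SE 0.28), with a 95% interval from -0.65 to 0.66 and an adjusted p of 0.998 in edgeR. The share of all repeat counts was 10.6% and 9.63% in Ars2KD and 9.37% and 9.39% in wKD, higher in both Ars2KD libraries, and the two-sided exact permutation test gave p = 0.3333, the smallest that 2 against 2 libraries allow.

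The window labelled 20A was nearly empty. Of its 68 copies, 60 are simple or low-complexity repeats, 8 are transposon copies, and none is an LTR or LINE fragment. It held 1 count in all, in Ars2KD 1, over a simple repeat at X:21436406 to 21436461 in an intron of DIP-beta, which encodes a cell surface protein of neurons. A count of 0 in the other 3 libraries allows up to 3 counts each, or 0.00177%, 0.00466% and 0.000928% of repeat counts in Ars2KD 2, wKD 1 and wKD 2, and the exact binomial upper limit of the 1 count in Ars2KD 1 is 0.0121%. The annotation places the genes mst, lcs, whe, CG10918 and DIP-beta and the noncoding genes lncRNA:CR45500 and lncRNA:CR45003 there. The data therefore do not show a cluster in this window, and no ratio was computed for it. The bounds were read as dm6 positions and converted from no other build, and whether they were meant for dm6 is not known. The near-zero value is thus that of the window and cannot be taken as that of the 20A cluster, which may lie elsewhere in dm6.

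A dense stretch of counts lay instead between the gene Cyp6t1, a member of the cytochrome P450 family, and flamenco. It was singled out after its values were seen, so it is described with no test. Its 51 copies at X:21521879 to 21558273, of which 42 are LTR fragments, held 3067 and 8988 counts in Ars2KD 1 and 2, against 3084 and 16395 in wKD 1 and 2. These made up 62.6% and 55.2% of the counts of the rest in Ars2KD and 51.1% and 54.0% in wKD, and LTR fragments gave 99.6% or more of the stretch's counts in each library. The level was 69624 ± 1797 CPM against 61184 ± 10287 CPM, and the log2 ratio was 0.40 (0.32 to 0.47) between the libraries numbered 1 and -0.0022 (-0.04 to 0.03) between those numbered 2. Ars2KD 1 was the highest library and wKD 1 the lowest, and the other two lay between them. Per library the stretch held more counts than flamenco in all 4 libraries, by 1.68-fold and 1.76-fold in Ars2KD and 1.08-fold and 1.87-fold in wKD. Without the stretch, the level of the rest was 48951 ± 9241 CPM against 54870 ± 4719 CPM. Of all repeat counts, the stretch held 6.64% and 5.31% in Ars2KD and 4.79% and 5.07% in wKD. The rest without the stretch held 3.97% and 4.31% in Ars2KD and 4.58% and 4.31% in wKD. The higher share of the rest in both Ars2KD libraries was thus not seen without the stretch.

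**Figure D1:**
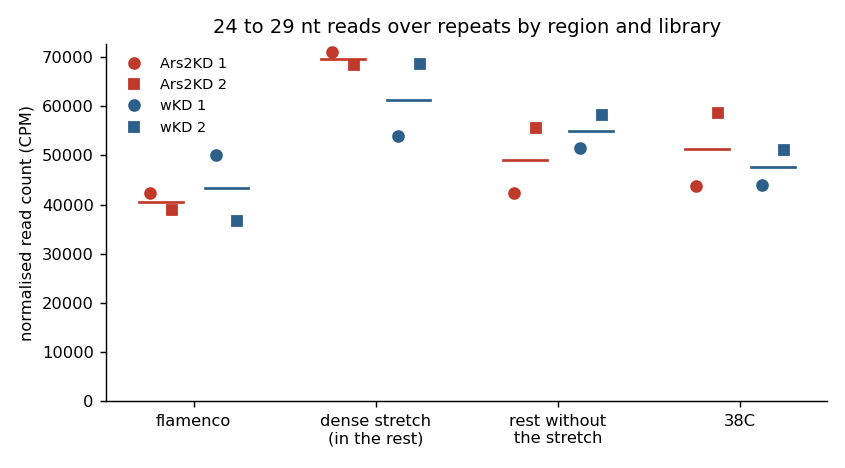
Normalised read count (CPM, from 0) of flamenco, the dense stretch, the rest without that stretch and the germline cluster 38C, with a point for each library and a line at each group mean. The Ars2KD and wKD points overlap in all 4 places, and in flamenco they run from 36569 to 50117 CPM.

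Ratios between loci within a library need no scaling, and the groups overlapped in each of them. flamenco held 0.373 and 0.313 counts per count of the rest in Ars2KD and 0.475 and 0.289 in wKD, a difference of -0.12 in log2 ratio (exact permutation p = 1). Against 38C, a germline cluster on chromosome 2L, flamenco held 0.965 and 0.663 counts per count in Ars2KD and 1.14 and 0.715 in wKD, a difference of -0.17 (exact permutation p = 0.667). Against 42AB, a germline cluster on chromosome 2R, it held 0.192 and 0.110 counts per count in Ars2KD and 0.170 and 0.0746 in wKD, a difference of 0.37 (exact permutation p = 0.667). All 3 adjusted p-values were 1, and the 2 comparisons planned with the 20A window could not be computed. The level of 42AB was 286348 ± 94469 CPM against 392370 ± 137946 CPM and that of 38C was 51184 ± 10438 CPM against 47597 ± 5014 CPM, with overlapping groups in both. By library number, the log2 ratio of 42AB was -0.43 (-0.46 to -0.39) and -0.47 (-0.49 to -0.46). That of 38C was -0.01 (-0.09 to 0.08) and 0.20 (0.15 to 0.24). These intervals are exact binomial and cover counting error only. As a share of all repeat counts, 38C was higher in both Ars2KD libraries, at 4.10% and 4.55% against 3.91% and 3.79%.

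Within flamenco, counts were concentrated near the start of its annotated transcript. The annotated noncoding gene lncRNA:flam, which marks the locus, runs on the plus strand from X:21631891 to 21790731, and the gene DIP1 lies upstream at X:21624796 to 21630148. The first 10 kb of the flamenco window, counted from 21630000, held 58.6% and 39.4% in Ars2KD and 55.9% and 37.7% in wKD of the flamenco counts, and the first 50 kb held 81.0% and 76.5% in Ars2KD and 80.5% and 73.9% in wKD. The libraries numbered 1 had the higher share in the first 10 kb in both groups. The stretch from 50 to 100 kb contained 36 copies but only 5, 19, 4 and 30 counts in Ars2KD 1, Ars2KD 2, wKD 1 and wKD 2, that is 0.14% to 0.372% of flamenco. The part from 100 kb to the end held 7905, 8966, 9684 and 9433 CPM in the same order. Both Ars2KD libraries were below both wKD libraries there, with a log2 ratio of -0.29 (-0.49 to -0.10) between the libraries numbered 1 and -0.07 (-0.18 to 0.03) between those numbered 2, and this part was chosen after its values were seen and was not tested.

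**Figure D2:**
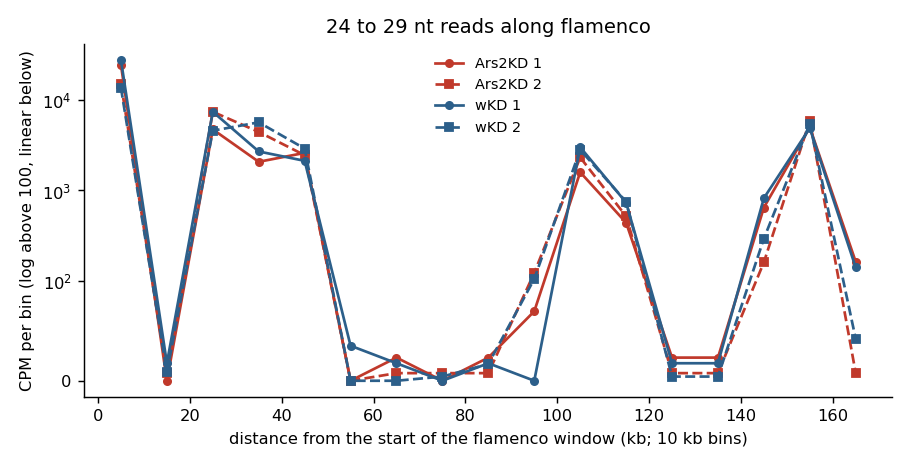
Normalised read count (CPM, log scale above 100 and linear below) in bins of 10 kb along flamenco, by distance from the start of the window in kb, with a line for each library. The first bin is the highest in every library, from 13771 to 28021 CPM, and the bins from 50 to 100 kb hold at most 122 CPM.

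A small number of copies gave most of the flamenco counts. The highest copy alone gave 26.8% on average, the highest 3 gave 47.9% and the highest 10 gave 77.9%. Of the 160 transposon copies in flamenco, 45 matched an annotated insertion that lies antisense to lncRNA:flam, 21 matched one in the sense direction, and 94 matched none by at least 50% of their length. The antisense copies held 753 and 1329 counts in Ars2KD and 1145 and 2330 in wKD, and the sense copies held 41 and 61 in Ars2KD and 85 and 186 in wKD. This compares the direction of the inserted element, not the strand of the reads, which the counts do not separate. The 94 unmatched copies held 1033 and 3712 counts in Ars2KD and 1633 and 6242 in wKD. That is 56.5% to 72.8% of flamenco counts over the libraries, so most counts have no direction assigned. The 38 copies of 1 kb or longer held 7.40 and 27.5 counts per kb in Ars2KD and 10.8 and 44.8 in wKD, and the 122 shorter copies held 25.5 and 51.5 in Ars2KD and 42.3 and 95.2 in wKD. Shorter copies thus held more counts per kb in each library.

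The copy with the highest level was an internal fragment of Idefix, an LTR retrotransposon of the gypsy group known to be controlled by flamenco. It lies at X:21634428 to 21635970 in an exon of lncRNA:flam and held 444 and 1732 counts in Ars2KD 1 and 2, against 690 and 2377 in wKD 1 and 2. Scaled levels were 10263, 13172, 12062 and 9925 CPM in that order, so that the groups overlapped, and the log2 ratio was 0.09 (SE 0.44) with an adjusted p of 0.999 in edgeR. A second high copy, an internal fragment of gtwin, another gypsy-group element, lies at X:21637141 to 21637505 in an exon of lncRNA:flam. It held 455 and 125 counts in Ars2KD 1 and 2, against 613 and 456 in wKD 1 and 2. Its level was 11.1-fold higher in Ars2KD 1 than in Ars2KD 2 and 5.63-fold higher in wKD 1 than in wKD 2, and the log2 ratio between groups was -0.14 (SE 1.13).

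A pair of other flamenco copies had far higher levels in the libraries numbered 2 of both groups. The long terminal repeat Gypsy2_LTR at X:21667588 to 21667897 held 8 and 489 counts in Ars2KD 1 and 2, against 17 and 728 in wKD 1 and 2. That is 20.1-fold more in Ars2KD 2 than in Ars2KD 1 after scaling, and 10.2-fold more in wKD 2 than in wKD 1, the opposite order to gtwin. A fragment of Gypsy2-I_DM at X:21788337 to 21789704 had the same order, with 15, 281, 13 and 455 counts in Ars2KD 1, Ars2KD 2, wKD 1 and wKD 2. The group ratios of these copies were small beside this split, at 0.23 (SE 1.34) and 0.22 (SE 1.10) in log2.

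Further gypsy-group and mdg1 copies had groups that overlapped and log2 ratios near 0. The mdg1 internal fragment at X:21670031 to 21671989 held 109, 322, 119 and 685 counts in the same order, with a log2 ratio of 0.01 (SE 0.49). The Gypsy4_I-int fragment at X:21783996 to 21785932 held 111, 279, 140 and 480, with a log2 ratio of 0.07 (SE 0.49). Neighbouring fragments of gypsy3 and Gypsy1-DM at X:21656380 to 21656761 held 38, 369, 114 and 358 and 81, 415, 176 and 394 counts, and their log2 ratios were -1.18 and 0.91 and -0.72 and 0.94 for the numbers 1 and 2. They were thus lower in Ars2KD among the libraries numbered 1 and higher among those numbered 2.

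Of the 10 named flamenco copies, 2 had lower levels in both Ars2KD libraries than in both wKD libraries, as 17.3% of all tested copies of the table did. An internal fragment of ZAM, whose silencing in follicle cells depends on flamenco, lies at X:21668988 to 21669672 in an exon of lncRNA:flam. It held 29 and 71 counts in Ars2KD 1 and 2, against 66 and 522 in wKD 1 and 2, or 670.3, 539.9, 1154 and 2180 CPM. Both Ars2KD libraries lay under both wKD libraries, and the log2 ratio was -1.47 (SE 0.59), with an unadjusted p of 0.0417 and an adjusted p of 0.999 in edgeR, so that it did not pass. The longest of the named copies, a Gypsy2-I_DM fragment at X:21733446 to 21739580, held 68 and 299 counts in Ars2KD 1 and 2, against 161 and 644 in wKD 1 and 2, or 1572, 2274, 2814 and 2689 CPM. Its groups did not overlap either, and its log2 ratio was -0.51 (SE 0.50) with an adjusted p of 0.999 in edgeR.

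**Figure D3:**
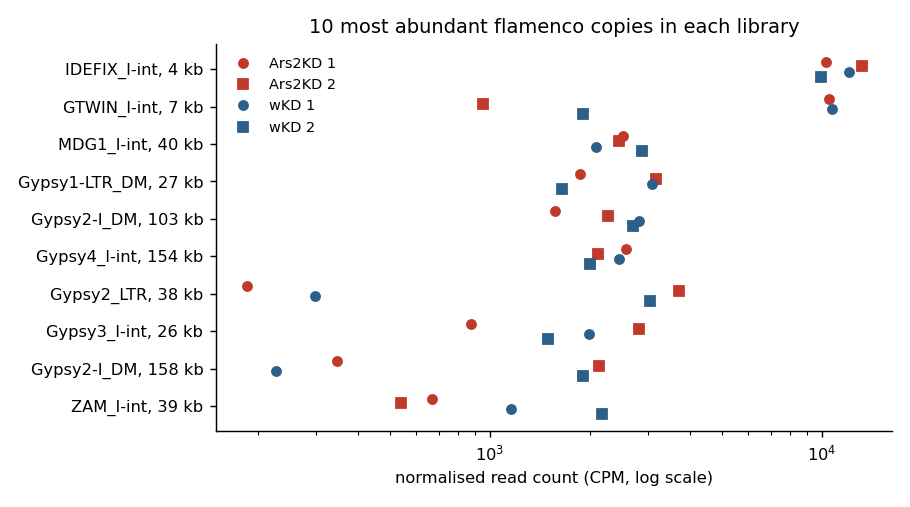
Normalised read count (CPM, log scale) of the 10 flamenco copies with the highest mean level, with a point for each library. The gtwin and Gypsy2_LTR copies separate the libraries by number, and the ZAM copy lies at 539.9 and 670.3 CPM in Ars2KD and 1154 and 2180 CPM in wKD.

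Summed by family, no element passed the test in flamenco. Among the 263 family sums tested over the whole table, edgeR called 1 higher (0.38%) and none lower (0%) at an adjusted p under 0.05, and none of the 82 sums in the X pericentromere was among them. At an unadjusted p under 0.05, 0 of the 82 were higher and 1 lower, against 2.66% and 2.28% of all family sums. Idefix, the leading family, gave 29.4% of flamenco counts and held 488 and 1809 counts in Ars2KD 1 and 2, against 754 and 2565 in wKD 1 and 2. Its log2 ratio was 0.13 (SE 0.30). Between 73.1% and 84.6% of all Idefix counts in a library lay in flamenco, and 70.6% to 87.7% of ZAM counts did. ZAM held 108 and 270 counts in Ars2KD 1 and 2, against 179 and 846 in wKD 1 and 2, lower after scaling in both Ars2KD libraries (2275 ± 313 CPM against 3331 ± 285 CPM), with a log2 ratio of -0.50 (SE 0.29) that did not pass (edgeR adjusted p = 0.99).

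The remaining leading families of flamenco had overlapping groups. gtwin gave 15.7% of flamenco counts, with a log2 ratio of -0.10 (SE 1.10), and the share of gtwin counts lying in flamenco ran from 20.1% to 83.5% over the libraries. mdg1, an LTR element of a related group, had a log2 ratio of 0.07 (SE 0.31), and 11.7% to 13.8% of its counts lay in flamenco. Gypsy2-DM, gypsy4, Gypsy1-DM, gypsy2 and gypsy3, all gypsy-group LTR elements, had log2 ratios of -0.28, 0.15, 0.17, 0.26 and 0.19. Helena, the leading LINE, had -0.01 (SE 0.29). Every one of these ratios was smaller than its standard error.

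A list of 16 LTR families linked to follicle cells was compared by place. In flamenco 10 were counted, 7 were tested and 3 had a log2 ratio above 0, with a median of -0.10 and a range from -0.69 for gypsy5 to 0.33 for Stalker2. In the rest 14 were tested and 4 were above 0, with a median of -0.16 and a range from -1.10 for DM176 (named as in the table) to 0.68 for gtwin. Elsewhere in the genome all 16 were tested and 6 were above 0, with a median of -0.07. edgeR called none at any place. Scaling to the total of both tables changed the counts above 0 to 2 in flamenco and 5 in the rest, and scaling to the repeat table total changed the latter to 5. The families of this list that had too few counts in flamenco to test were blood with 3, 16, 0 and 22, gypsy with 0, 0, 1 and 9 and DM412 with 0, 1, 0 and 1 in Ars2KD 1, Ars2KD 2, wKD 1 and wKD 2.

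In the rest of the X pericentromere, Stalker4 of the same list was lower in both Ars2KD libraries, at 3207 ± 663 CPM against 4881 ± 1069 CPM and a log2 ratio of -0.57 (SE 0.33) that did not pass, and in flamenco it had -0.56 (SE 0.59) with overlapping groups. The other log2 ratios were -0.24 for Idefix, -0.03 for DM297, -0.17 for Quasimodo, 0.60 for gypsy10, -0.09 for gypsy, -0.83 for DM412, 0.67 for gypsy5, -0.80 for Tirant and -0.77 for ZAM. Each of these rested on 153 or fewer counts per library, and each had overlapping groups. blood and Tabor had at most 2 counts in a library there.

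Across all single copies, no member passed the test. Of 1647 copies tested over the whole table, edgeR called 1 as higher in Ars2KD (0.0607%) and 0 as lower (0%), and 0 of the 154 X pericentromere copies in either direction. DESeq2 and limma-voom called 0 members as well. With the library number added to the edgeR model as a replicate block, 0 members were called higher and 4 lower. Over the whole table that model called 25 copies higher and 46 lower. At an unadjusted p under 0.05, 0 members were higher and 3 lower, against 2.13% and 2.06% of all tested copies. Groups that did not overlap were seen in 10 members as higher and 23 as lower, against 16.8% and 17.3% of all tested copies, so that the members' shares of 6.49% and 14.9% were not above the background. In flamenco alone these counts were 0 and 5 of 32. The median log2 ratio was -0.09 in flamenco, -0.12 over the members and -0.02 over all copies.

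**Figure D4:**
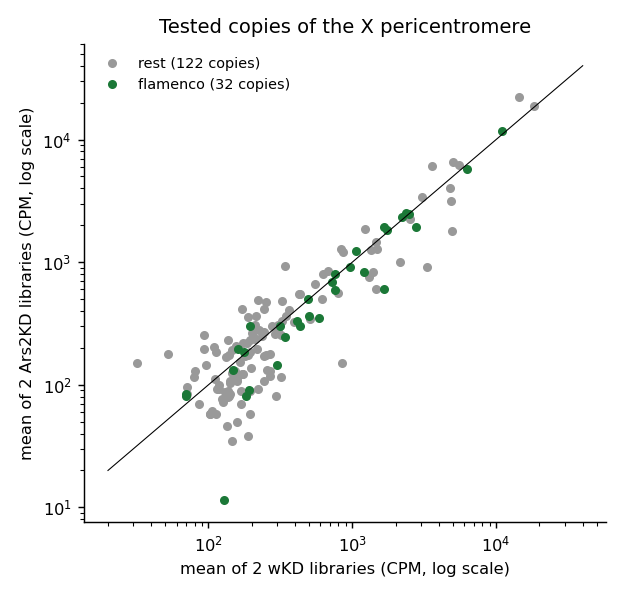
Mean level in the 2 Ars2KD libraries (y axis) against the mean level in the 2 wKD libraries (x axis), both in CPM on log scales, for the 32 tested copies of flamenco and the 122 tested copies of the rest, with a line where the means are equal. Copies of both kinds scatter on both sides of the line, more widely at low levels.

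The library number separated the members more than the knockdown did. For each tested copy the gap between the libraries numbered 1 and 2 was set beside the gap between groups. The first was larger for 25 of 32 flamenco copies (78.1%), 18 of 19 copies of the dense stretch and 113 of all 154 members (73.4%), and for 966 of all 1647 copies (58.7%). Across the 32 flamenco copies, log2 levels correlated with r = 0.88 between the groups at number 1 and 0.93 at number 2, and with 0.51 within Ars2KD and 0.66 within wKD. These correlations are across copies, which share libraries and depth and are not independent. The sources used here do not say what the numbers stand for, and the germline miRNA share printed above split the libraries by number too.

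Among the copies of the rest, the 3 highest mean levels belonged to fragments of rooA, roo and mdg1, LTR retrotransposons, in the dense stretch. The long terminal repeat of roo at X:21523759 to 21524048 lies in an exon of lncRNA:CR46472, a noncoding gene at X:21520175 to 21527105, and held 1158 and 1400 counts in Ars2KD 1 and 2, against 937 and 4857 in wKD 1 and 2. Its log2 ratio was 0.03 (SE 0.54), and by number it was 0.71 and -0.93, with opposite signs. The rooA fragment at X:21522489 to 21523176 held 437 and 4572 counts in Ars2KD 1 and 2, against 468 and 4969 in wKD 1 and 2, with levels 3.44-fold and 2.54-fold higher in library 2 than in library 1 of Ars2KD and wKD. Its log2 ratio was 0.63 (SE 0.71). The one named member of the stretch with groups that did not overlap was an internal roo fragment at X:21525409 to 21526754, with 263 and 793 counts in Ars2KD 1 and 2, against 190 and 918 in wKD 1 and 2. Its level was 6055 ± 34.4 CPM against 3577 ± 362 CPM and its log2 ratio was 0.76 (SE 0.45), with an adjusted p of 0.999 in edgeR.

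The other named copies of the stretch had overlapping groups. Internal mdg1 fragments starting at 21554588, 21553781 and 21523207 had log2 ratios of 0.18 (SE 0.57), -0.23 (SE 0.71) and -0.62 (SE 0.83). A roo fragment at X:21552943 to 21553660 held 249, 135, 227 and 522 counts in Ars2KD 1, Ars2KD 2, wKD 1 and wKD 2, with a log2 ratio of 0.14 (SE 0.81). Summed over the rest, roo held 1901 and 2483 counts in Ars2KD 1 and 2, against 1625 and 6667 in wKD 1 and 2, which was 69.4% to 81.5% of its counts in the genome, with a log2 ratio of 0.22 (SE 0.45). mdg1 had -0.16 (SE 0.33), with 76.6% to 81.8% of its counts in the rest, and rooA had 0.61 (SE 0.62).

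Beyond flamenco towards the centromere, the copy closest to passing was an internal fragment of NOMAD, the LTR element also called opus. It lies at X:22253531 to 22255504, between genes and 1117 bp from CG41562, and held 78 and 234 counts in Ars2KD 1 and 2, against 330 and 983 in wKD 1 and 2. Scaled levels were 1803, 1780, 5769 and 4105 CPM, so that both Ars2KD libraries lay under both wKD libraries. The log2 ratio was -1.46 (SE 0.49), with an unadjusted p of 0.0198 and an adjusted p of 0.999 in edgeR. A neighbouring opus fragment at X:22252939 to 22253535, chosen after its values were seen, held 15, 113, 61 and 440 counts in the same order. Part of its length overlaps another annotated copy, as does that of the larger fragment.

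Summed over the rest, opus held 93 and 347 counts in Ars2KD 1 and 2, against 391 and 1423 in wKD 1 and 2, a level of 2394 ± 346 CPM against 6388 ± 632 CPM. The groups did not overlap, and the log2 ratio was -1.35 (SE 0.28), with a 95% interval from -2.02 to -0.68. The unadjusted p was 0.00204 and the adjusted p 0.268 in edgeR, so that opus did not pass, while DESeq2 gave an adjusted p of 0.0479 and limma-voom 0.109, and over all alternatives it ran from 0.0012 to 0.999. The opus copies elsewhere in the genome had a log2 ratio of -0.43. These copies of the rest held 26.4% to 45.6% of all opus counts.

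Levels over the 50 kb around opus were also lower in both Ars2KD libraries. In the 50 kb that begin 900 kb from X:21350000, 45 copies held 157 and 545 counts in Ars2KD 1 and 2, against 535 and 2358 in wKD 1 and 2, of which opus gave 65.4% and Stalker4 26.7%. Scaled levels were 3629, 4145, 9352 and 9846 CPM, and the log2 ratio was -1.37 (-1.63 to -1.11) between the libraries numbered 1 and -1.25 (-1.39 to -1.11) between those numbered 2. All 6 tested copies there had a log2 ratio under 0. A Stalker4 fragment at X:22257996 to 22259280 held 44, 128, 99 and 619 counts in Ars2KD 1, Ars2KD 2, wKD 1 and wKD 2. These bounds were chosen after the values were seen, so no test was made.

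R1 and R2, LINEs that insert into the ribosomal RNA genes, held 336 and 1728 counts in Ars2KD 1 and 2, against 589 and 2907 in wKD 1 and 2 for R1 and 12, 56, 14 and 86 for R2 in Ars2KD 1, Ars2KD 2, wKD 1 and wKD 2. All R2 counts of the table and 50.1% to 57.0% of R1 counts lay in the rest. Their log2 ratios were -0.05 (SE 0.36) and 0.26 (SE 0.62), with overlapping groups. One R1 copy at X:22373510 to 22373681 held 59 and 62 counts in Ars2KD 1 and 2, against 252 and 534 in wKD 1 and 2, lower in both Ars2KD libraries, with a log2 ratio of -1.87 (SE 0.70), an unadjusted p of 0.0312 and an adjusted p of 0.999 in edgeR. A second R1 copy at X:22396677 to 22398521 held 46, 447, 53 and 993 counts, with a log2 ratio of -0.18 (SE 0.84) and overlapping groups.

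The remaining abundant family was Stalker2, an LTR element with 73.5% to 98.5% of its counts in the rest. It held 106 and 1411 counts in Ars2KD 1 and 2, against 83 and 2063 in wKD 1 and 2, nearly all over an internal fragment at X:22126534 to 22127177. That copy was 4.46-fold higher in Ars2KD 2 than in Ars2KD 1 and 6.23-fold higher in wKD 2 than in wKD 1, and its log2 ratio between groups was 0.39 (SE 0.96). With 1 library left out, the log2 ratio of Stalker2 in the rest was 1.02 without Ars2KD 1 and -1.06 without Ars2KD 2. It was -0.48 without wKD 1 and 2.32 without wKD 2, so its sign changed with the library left out.

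Of the members with a log2 ratio above 0, the 3 of lowest p were LINE fragments towards the centromeric end of the array. G_DM at X:23203572 to 23205063, 96 bp from mir-10404-3, held 10 and 36 counts in Ars2KD 1 and 2, against 5 and 24 in wKD 1 and 2, with a log2 ratio of 1.41 (SE 0.72) and an unadjusted p of 0.088 in edgeR. DMRT1B at X:23445504 to 23447788 held 6 and 21 counts in Ars2KD 1 and 2, against 1 and 11 in wKD 1 and 2, with 2.07 (SE 1.10) and an unadjusted p of 0.102. DMRT1A at X:23450479 to 23452156 held 20 and 48 counts in Ars2KD 1 and 2, against 12 and 32 in wKD 1 and 2, with 1.28 (SE 0.69) and an unadjusted p of 0.104. The adjusted p was 0.999 for each in edgeR, and the counts were low, as only 1 to 48 reads per library lay behind each copy.

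By position, counts near the end of the assembled array and counts between it and flamenco ran in opposite directions. These bounds were also chosen after the values were seen, so the values are a description with no test. The last 400 kb, from X:23149600 to 23542271, contain 398 copies led by R1 (33.3% of counts) and G (14.1%), and held 597 and 2690 counts in Ars2KD 1 and 2, against 677 and 3255 in wKD 1 and 2, or 13800, 20457, 11834 and 13591 CPM. Both Ars2KD libraries lay above both wKD libraries, with a log2 ratio of 0.22 (0.06 to 0.38) between the libraries numbered 1 and 0.59 (0.52 to 0.66) between those numbered 2. The 1574 copies between flamenco and this stretch held 1232 and 4603 counts in Ars2KD 1 and 2, against 2268 and 10652 in wKD 1 and 2, or 28478, 35005, 39646 and 44478 CPM. There both Ars2KD libraries lay below both wKD libraries, with a log2 ratio of -0.48 (-0.58 to -0.38) between the libraries numbered 1 and -0.35 (-0.40 to -0.30) between those numbered 2. This part includes the 50 kb around opus, with 157, 545, 535 and 2358 counts in Ars2KD 1, Ars2KD 2, wKD 1 and wKD 2. It also includes X:22349805 to 22449808, led by R1, with 295, 1092, 673 and 2582 counts in the same order. Both places, also picked after their values were seen, were lower in both Ars2KD libraries after scaling. No level without them was computed, so the difference cannot be read as spread over the whole part.

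The ratio of the last 400 kb to the part between it and flamenco, which needs no scaling, was 0.485 and 0.584 in Ars2KD and 0.299 and 0.306 in wKD. Of the tested copies, 30 of 44 in the last 400 kb had a log2 ratio above 0 (median 0.34), against 16 of 59 between flamenco and that stretch (median -0.48). Over all tested copies of the table the median was -0.02. Copies share the same libraries and are not independent. In bins of 50 kb with a mean of at least 200 CPM, 7 of the 8 bins of the last 400 kb were higher in Ars2KD at both numbers, and of the 21 bins before them 4 were higher and 10 lower at both numbers. Within the R1 family, levels in the last 400 kb were 4253 and 7803 CPM in Ars2KD and 3479 and 4489 CPM in wKD. The groups overlapped there, and the interval at number 1 (-0.0071 to 0.59 in log2) included 0. Between flamenco and that stretch, R1 was at 3514 and 5339 CPM in Ars2KD and 6817 and 7650 CPM in wKD, lower in both Ars2KD libraries. That level rested on 9 R1 copies, 7 of them counted, among them the copy at X:22373510 with a log2 ratio of -1.87. No level without that copy was computed. For the full stretches, the order of the groups was the same as shares of repeat counts and when scaled to the total of both tables. The copy counts, bin counts and ratios of these stretches come from the values on which the bounds were chosen. They restate that choice and add no separate support.

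**Figure D5:**
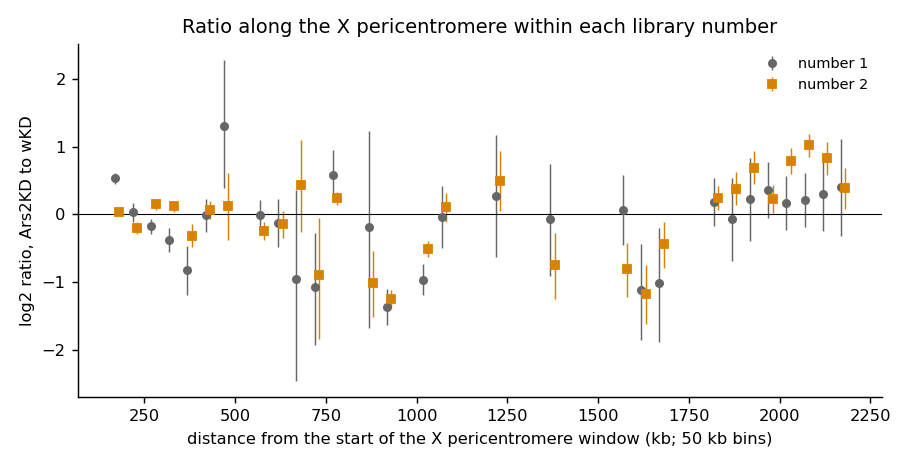
Log2 ratio of Ars2KD to wKD in bins of 50 kb with a mean of at least 200 CPM, by distance from the first position of the X pericentromere in kb, for the libraries numbered 1 and those numbered 2, with exact 95% binomial intervals of the counts. In the last 400 kb, a bound chosen after the values were seen, 7 of 8 bins lie above 0 at both numbers, and the bin that holds opus lies at -1.37 and -1.25.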

How the data were processed

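Small RNA reads of 2 Ars2KD and 2 wKD ovary libraries were used as the raw counts that the authors deposited, per the file headers as reads of 24 to 29 nt for each repeat copy and as reads for each miRNA. Tools in the submitters' processing notes are Bowtie2, featureCounts, Trimmomatic and FastQC, with dm6 as the build. The sources used here do not give their versions, the strand setting or what was done with reads of several positions. Counts may thus have been split among near-identical copies, and sense and antisense reads are joined. Of flamenco copies 32.8% overlap another annotated copy.

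Library totals were 46218, 169124, 64395 and 323180 counts for Ars2KD 1, Ars2KD 2, wKD 1 and wKD 2. Single copies, family sums by place (internal and LTR parts joined) and region sums were each fitted on the whole table with edgeR 4.0.16 in R 4.3.3 (TMM scaling, filterByExpr with the group, glmQLFit and glmQLFTest, no replicate block, Benjamini-Hochberg over all rows of a fit, adjusted p under 0.05). SE is the log2 ratio divided by the square root of F. Levels are CPM values, that is counts over the TMM-scaled library size. Shares and ratios of regions were compared by two-sided exact permutation tests, which cannot go below 0.3333 with 2 against 2 libraries. Exact binomial intervals (95%) and the floor of 3 counts cover counting error only, because reads lacking molecular identifiers do not stand for separate molecules. The edgeR step was run on simulated data with a common dispersion, no effect of library number and changes larger than most ratios here. That run does not bear on whether small ratios could be found.

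Coordinates are 1-based dm6 positions. Genes and inserted elements come from Ensembl's annotation of BDGP6, the same assembly, and sequences were not used here. Common family names were added to the Repbase names of the table, and springer of the follicle cell list had no family of that name. Named copies were the 10 of highest mean CPM in flamenco and in the rest, up to 5 in the 20A window, and in each direction the 3 of lowest p with at least 10 CPM. Named families were the 10 of highest mean CPM in flamenco, 6 in the rest, and those of the follicle cell and ribosomal DNA lists. Any other item is marked as picked after seeing its values. The members, lists and tests were chosen with earlier results of these data known.

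Alternatives were DESeq2 1.42.0, limma-voom (limma 3.58.1), 3 other scalings, no low-count filter, other choices of copies, a replicate block and leaving out each library. Figures were drawn with matplotlib 3.10.9, and tables were handled in Python with pandas 2.3.3, scipy 1.17.1 and numpy 2.4.6.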

Additional observations from a re-analysis of the deposited data

How the results depend on the processing

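The log2 ratios of the whole, of flamenco and of the rest missed the threshold under each alternative fitted. For the whole X pericentromere the log2 ratio was 0.070 when scaled to the repeat table total and ran from -0.23 to 0.041 with 1 library left out. For the rest it was -0.046 scaled to the total of both tables, -0.18 with no filter, -0.10 with non-overlapping copies only and -0.19 without the dense stretch (an alternative chosen after seeing the data), and from -0.29 to 0.18 with 1 library left out. The difference of flamenco to the rest was 0.095 without the stretch, and with 1 library left out it ran from -0.48 to 0.24, that to 42AB from -0.23 to 0.96 and that to 38C from -0.51 to 0.16. Differences in share ran from -0.31 to 1.61 percentage points for the whole and from -0.97 to 0.78 for flamenco, and over miRNA counts they were -0.045 for the whole and -0.022 for the rest. Over the whole table, copies called higher and lower were 4 and 3 by DESeq2, 4 and 4 with no filter and 2 and 0 under both total scalings, with 3 to 4 and 0 to 5 when 1 library was left out. Family sums called higher were 0 scaled to both tables and 0 to 2 with 1 library left out, and DESeq2 called 2 lower. Among X pericentromere family sums, DESeq2 called 1 lower (opus), and 0 to 1 were higher with 1 library left out (Stalker2 without wKD 2). Ars2KD and wKD share replicate numbers, but only 2 pairs exist and nothing says what a number stands for. Deviations from group means correlated by 0.739 between same-numbered libraries over the members. With the replicate block, 25 copies were called higher and 46 lower among the 1647 tested over the whole table, and 5 family sums each way. In the X pericentromere 0 copies were called higher and 4 lower among the 154 tested, and 1 family sum was lower. Among the named copies of these, edgeR's adjusted p with the block was 8.8e-06 for R1_DM 22373510, 0.0013 for NOMAD_I-int 22253531 and 0.011 for ZAM_I-int 21668988. It was 0.0012 for the family opus, while the other named R1 copy, R1_DM 22396677, had 0.95. Where a library was left out, the lone library of its group was assumed to vary like the other group. Of the 56 named copies and families, 19 changed sign under some setting other than leaving out a library. Scaled to both tables, which moved the median of all copies by -0.10, the log2 ratios that changed sign were -0.025 for IDEFIX_I-int 21634428, 0.089 for GTWIN_I-int 21637141, -0.013 for MDG1_I-int 21554588, -0.050 for MDG1_I-int 21670031, -0.086 for Gypsy1-LTR_DM 21656552, -0.23 for Gypsy2_LTR 21667588, -0.21 for Gypsy3_I-int 21656380, -0.15 for Gypsy2-I_DM 21788337, -0.039 for Idefix in flamenco, 0.031 for gtwin in flamenco, -0.028 for mdg1 in flamenco, -0.094 for Gypsy1-DM in flamenco, -0.085 for gypsy2 in flamenco, -0.18 for gypsy3 in flamenco and 0.0072 for DM297 in rest. With no filter they were -0.24 for ROO_LTR 21523759, -0.068 for IDEFIX_I-int 21634428, -0.034 for MDG1_I-int 21554588, -0.10 for ROO_I-int 21552943, -0.21 for MDG1_I-int 21670031, -0.011 for Gypsy1-LTR_DM 21656552, -0.11 for Gypsy4_I-int 21783996, -0.013 for Gypsy3_I-int 21656380, -0.0031 for Gypsy2-I_DM 21788337 and -0.020 for mdg1 in flamenco, by limma-voom -0.22 for ROO_LTR 21523759, -0.44 for ROO_I-int 21552943, -0.026 for MDG1_I-int 21670031, -0.20 for Gypsy2_LTR 21667588 and -0.69 for gypsy10 in rest, with the block -0.11 for ROO_LTR 21523759, -0.27 for ROO_I-int 21552943 and -0.032 for Gypsy3_I-int 21656380 and by repeat table total 0.040 for DM297 in rest. With 1 library left out, the ranges that changed sign were ROO_LTR 21523759 -0.90 to 0.53, ROOA_I-int 21522489 -0.56 to 1.48, IDEFIX_I-int 21634428 -0.11 to 0.15, GTWIN_I-int 21637141 -2.82 to 1.44, MDG1_I-int 21554588 -0.40 to 0.82, Stalker2_I-int 22126534 -1.11 to 2.28, MDG1_I-int 21553781 -1.48 to 0.41, MDG1_I-int 21523207 -1.55 to 1.22, ROO_I-int 21552943 -1.68 to 0.91, MDG1_I-int 21670031 -0.35 to 0.28, Gypsy1-LTR_DM 21656552 -0.33 to 0.46, R1_DM 22396677 -1.31 to 1.30, Gypsy4_I-int 21783996 -0.18 to 0.20, Gypsy2_LTR 21667588 -3.24 to 2.75, Gypsy3_I-int 21656380 -0.99 to 0.58, Gypsy2-I_DM 21788337 -1.69 to 2.49, Idefix in flamenco -0.019 to 0.19, gtwin in flamenco -2.79 to 1.53, mdg1 in flamenco -0.25 to 0.41, gypsy4 in flamenco -0.071 to 0.28, Gypsy1-DM in flamenco -0.26 to 0.52, gypsy2 in flamenco -1.22 to 1.87, gypsy3 in flamenco -0.85 to 0.68, Helena in flamenco -0.17 to 0.074, gypsy5 in flamenco -1.98 to 0.069, roo in rest -0.60 to 0.70, rooA in rest -0.44 to 1.37, mdg1 in rest -0.49 to 0.18, R1 in rest -0.48 to 0.20, Stalker2 in rest -1.06 to 2.32, DM297 in rest -0.93 to 0.53, Quasimodo in rest -0.57 to 0.18, gtwin in rest -0.20 to 1.22, R2 in rest -0.11 to 0.66, gypsy10 in rest -1.79 to 1.53, gypsy in rest -0.40 to 0.040, DM412 in rest -1.54 to 0.0058, Tirant in rest -4.01 to 0.35 and ZAM in rest -1.97 to 0.13. The cause was not tested. The low counts of Ars2KD 1 and wKD 1 limit what single copies can show, and the 20A window, with 1 count, could be fitted under no setting.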
